A study of Mus musculus with 19 samples.

Results

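Monocytes that carry the chemokine receptors CCR1 and CCR2 together (CCR1/2+ve) were compared with monocytes that carry CCR2 alone (CCR2+ve) after a week of systemic inflammation. The members of the comparison were chosen by their labels. They are 7 of the 19 sequenced samples of the study that could be mapped, 3 libraries of inflamed CCR1/2+ve cells (replicates 2, 3 and 4) and 4 of inflamed CCR2+ve cells (replicates 1 to 4). All 7 came from female REP mice of 8 to 12 weeks, a strain that reports several inflammatory chemokine receptors with a fluorescent protein each, so that CCR1 was read from Clover and CCR2 from mRuby2. In all 7 the mice bore an osmotic pump that released IL-3, IL-6, GM-CSF and IFN-α for a week, and the cells were sorted from bone marrow as Ly6C-high, CD11b+, Ly6G- and SiglecF-. By design the 2 populations share the pump and are parted by the reporter gate. The study asked how the 2 populations differ at rest and under inflammation, and its resting counterparts (4 libraries each, from mice with no pump) are used below only as a reference for the genes found here.

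CCR1 and CCR2 are receptors for inflammatory CC chemokines. CCR2 is needed for classical, Ly6C-high monocytes to leave the bone marrow, and CCR1 responds to ligands such as CCL3 and CCL5. Monocytes and neutrophils descend from shared granulocyte and monocyte progenitors, and some bone marrow monocytes carry transcripts for granule proteins that are better known from neutrophils, while others lean towards the antigen-presenting, dendritic cell-like fate.

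The 7 libraries held between 22268658 and 24444993 reads on genes, of which mitochondrial genes took 0.320% to 0.607%. Libraries of one group differed from each other beyond sampling noise (chi-square per degree of freedom between 19.04 and 66), so none was counted as a duplicate. On principal components of all genes tested, CCR1/2+ve replicate 2 stood apart on the first component (score -137.4, the others between -19.7 and 84.7). That component held 26.6% of the variance. Several results below are given with and without this library. Others are given only with it, among them those of Ccr1, Elane, Mpo and Lcn2, whose CCR1/2+ve levels were highest in it. The labels do not say whether replicates came from separate animals, so the p-values below measure only the spread between these samples. In bulk RNA from a sorted population, fewer cells that express a gene and less RNA per cell cannot be told apart. The monocyte identity of the cells was plain in both groups. Lysozyme (Lyz2) stood at 35864 ± 1893 CPM, a read count scaled to library depth, in CCR1/2+ve cells (mean ± SD, n = 3) and at 36400 ± 4252 CPM in CCR2+ve cells (n = 4), and the 21 monocyte core genes had a median log2 fold change of -0.04. All log2 fold changes are CCR1/2+ve over CCR2+ve and are given with their SE, and levels are given with the SD over libraries.

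The receptors that defined the gate were examined first. Ccr1 (ENSMUSG00000025804, chromosome 9, 123962124 to 123968692) stood at 421, 221 and 288 CPM in CCR1/2+ve replicates 2, 3 and 4 and at 215, 288, 166 and 167 CPM in CCR2+ve replicates 1 to 4. Replicate 2 was the highest of each group and the groups overlapped. The means, 310.0 ± 102 against 209 ± 57.4 CPM, differed by a log2 fold change of 0.55 ± 0.25 (SE), which did not pass (adjusted p = 0.574). Ccr2 (ENSMUSG00000049103, chromosome 9, 124101950 to 124113557) stood at 1355, 1275 and 1092 CPM in CCR1/2+ve and 1259, 1368, 1301 and 1075 CPM in CCR2+ve cells, with a log2 fold change of -0.03 ± 0.11 whose sign depends on which library is left out. Ccr1 mRNA was measured in all 4 libraries of cells sorted without the CCR1 reporter. The eosinophil-associated receptor Ccr3 was below 1 CPM in all 7 libraries. Csf1r, the receptor for the monocyte growth factor M-CSF, stood at 932, 1191 and 1118 CPM in CCR1/2+ve against 1384, 1460, 1743 and 1431 CPM in CCR2+ve cells. Its groups did not overlap, but the log2 fold change of -0.49 ± 0.12 did not pass (adjusted p = 0.178), and 15.1% of its exonic bases are shared with Hmgxb3.

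Under inflammation few genes passed between the populations. Genes of neutrophil granules and chemoattractant receptors were among those upregulated in CCR1/2+ve cells. Adhesion genes were called in both directions, with Ncam1 and Cldn15 upregulated and Nectin1 downregulated. Of 18652 genes tested, 19 were upregulated in CCR1/2+ve cells (0.102%) and 8 were downregulated (0.0429%), where both an adjusted p below 0.05 and a log2 fold change of 1 or more in size were required. At the adjusted p alone, 35 genes passed (0.188%). The 19 upregulated genes had a median log2 fold change of 1.67, between 1.04 and 4.06, and the 8 downregulated genes a median of -1.31. In each of the 27 the groups did not overlap, which held for 5.51% of all genes in the upward and 4.21% in the downward direction. At an unadjusted p below 0.05, 829 genes were higher (4.44%) and 846 lower (4.54%). DESeq2 on the same libraries called 43 higher and 64 lower, among them all 19 upregulated and 7 of the 8 downregulated genes. Upregulated genes were the steadier side. Without any one library 13 to 19 were called higher, and 9 of the 19 (Pglyrp1, Fcnb, Ncam1, A530064D06Rik, Ngp, Fpr1, Abca13, Cldn15 and Fpr2) were called whichever library was left out. On the lower side 3 genes were called without CCR1/2+ve replicate 2, 2 without replicate 3 and 4 without replicate 4, and 23, 4 and 3 without CCR2+ve replicates 1, 2 and 3 (8 without replicate 4), so that 0 of the 8 were called every time.

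**Figure D1:**
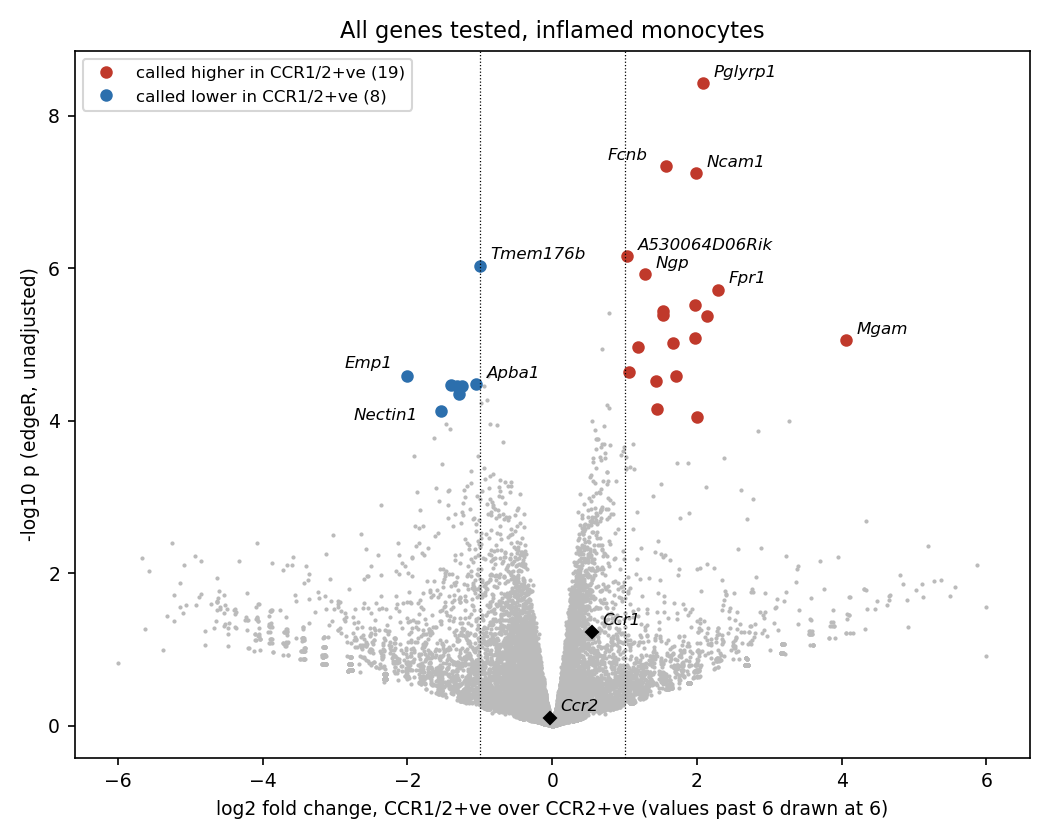
Each point is one of the 18652 genes tested, with the log2 fold change on the horizontal axis and -log10 of the unadjusted edgeR p on the vertical axis; dotted lines mark log2 fold changes of -1 and 1. The 19 genes called higher (red) reach up to Pglyrp1, the 8 called lower (blue) up to Tmem176b, and Ccr1 and Ccr2 (black diamonds) lie near the bottom.

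**Figure D2:**
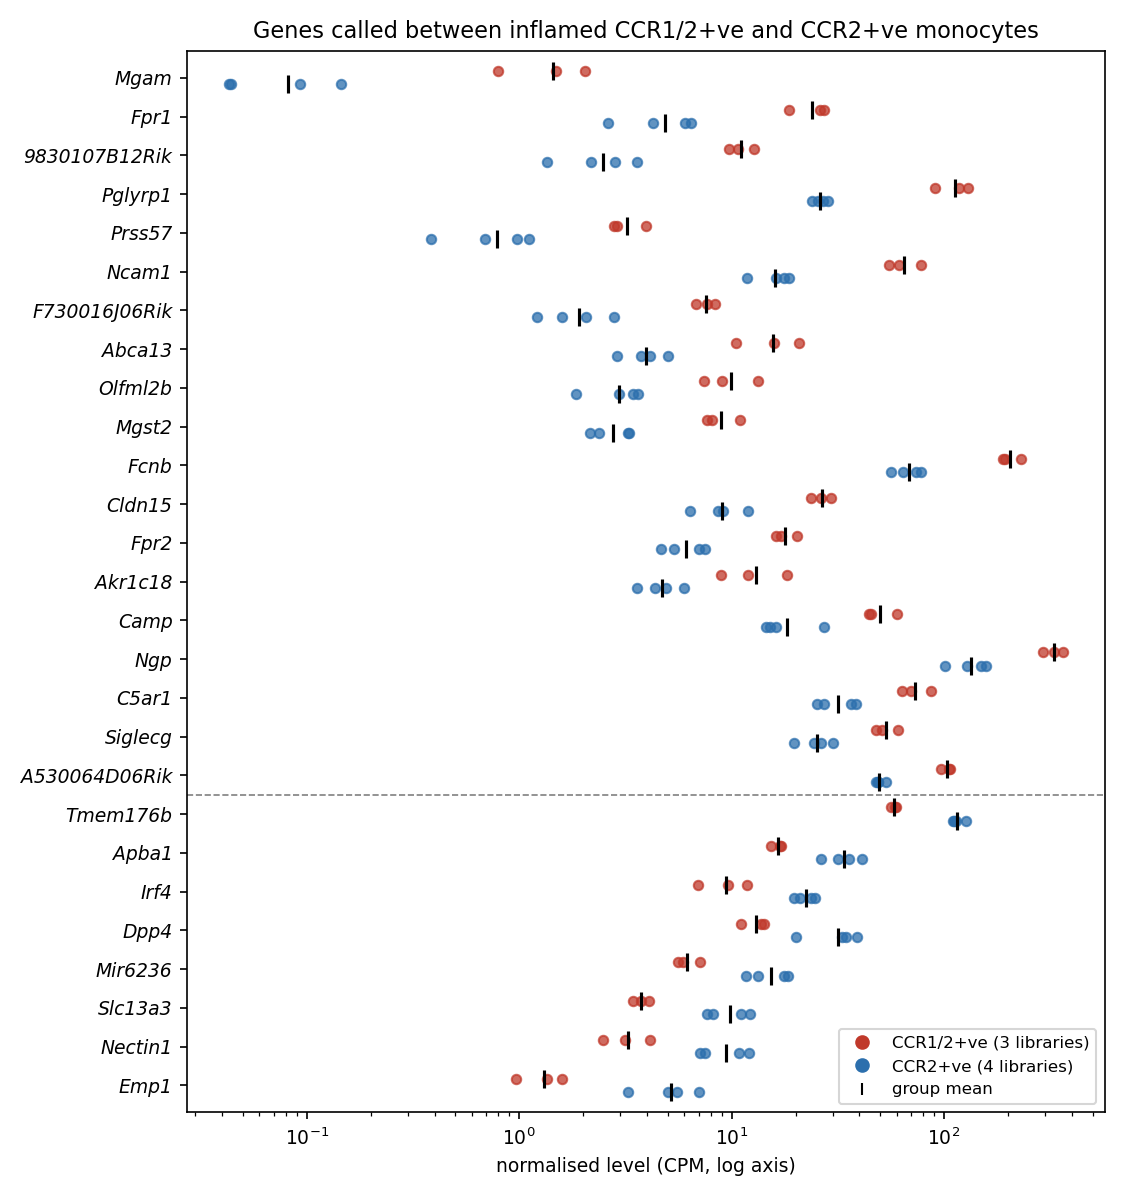
The level of each called gene in every library, in CPM on a log axis, with 3 CCR1/2+ve libraries in red, 4 CCR2+ve libraries in blue and a black bar at each group mean; the dashed line parts the 19 upregulated from the 8 downregulated genes. The red and blue points of a gene do not overlap in any row.

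Pglyrp1 and Fcnb, the upregulated genes with the smallest p, encode antimicrobial proteins of neutrophil granules, and the adhesion gene Ncam1 came next. Pglyrp1 (ENSMUSG00000030413, chromosome 7, 18871331 to 18890459), a secreted peptidoglycan recognition protein that kills bacteria, stood at 90.4, 117 and 129.9 CPM in CCR1/2+ve cells and at 23.9, 25.4, 28.5 and 27.03 CPM in CCR2+ve cells. The lowest CCR1/2+ve library lay far above all 4 CCR2+ve libraries, which were close together. The log2 fold change was 2.09 ± 0.15 (adjusted p = 6.87e-05). Fcnb (ENSMUSG00000026835, chromosome 2, 28076378 to 28084885), a ficolin that binds microbial sugars and starts the lectin pathway of complement, stood at 189, 193 and 231 CPM against 73.7, 56.5, 64.2 and 78.2 CPM. Every CCR1/2+ve library was well above every CCR2+ve library, with a log2 fold change of 1.57 ± 0.14 (adjusted p = 0.000347). Its relative Fcna was low in both, at 1.92 ± 0.20 and 2.68 ± 0.40 CPM, with CCR1/2+ve below CCR2+ve libraries and no overlap, and did not pass (adjusted p = 0.621).

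Ngp and Camp, relatives in the cathelin family whose products are stored in secondary granules, moved the same way. Ngp (ENSMUSG00000032484, chromosome 9, 110419747 to 110423012), neutrophilic granule protein, stood at 293, 328 and 363 CPM in CCR1/2+ve and 157, 101, 128 and 149 CPM in CCR2+ve cells, a log2 fold change of 1.28 ± 0.15 (adjusted p = 0.00369). Camp (ENSMUSG00000038357, chromosome 9, 109847379 to 109849617), the precursor of the antimicrobial peptide CRAMP, stood at 45.1, 44.4 and 59.8 CPM against 27.3, 15.2, 16.1 and 14.5 CPM. CCR2+ve replicate 1 was the highest of its group but still below every CCR1/2+ve library. Its log2 fold change of 1.43 ± 0.22 passed narrowly (adjusted p = 0.0244), and it was no longer called without CCR1/2+ve replicate 3 or 4 or CCR2+ve replicate 2, 3 or 4 (adjusted p 0.0631 to 0.0952). Abca13, a very large lipid transporter of the ABC family, stood at 20.8, 15.8 and 10.5 CPM against 2.88, 5.02, 4.11 and 3.74 CPM, with a log2 fold change of 1.97 ± 0.25 (adjusted p = 0.00661).

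To show what lies before genes that moved together, the bases before Ngp, Fcnb and Pglyrp1 are given, 5′ to 3′ in the direction of the gene. They are RefSeq's 250 bases before its gene start, ended before the first exon of the gene in GENCODE M21, which reaches into that window by 61, 7 and 10 bases. In GRCm38.p6 they lie at chr9:110419558-110419746 (plus strand, Ngp), chr2:28084886-28085128 (minus strand, Fcnb) and chr7:18884440-18884679 (plus strand, Pglyrp1, whose GENCODE gene also has a start further upstream). Capitals mark matches on either strand to 2 patterns of letters known from myeloid promoters, TTNNGCAA (C/EBP type) and GAGGAA (PU.1 type). No 2 matches overlapped in these promoters.
Ngp: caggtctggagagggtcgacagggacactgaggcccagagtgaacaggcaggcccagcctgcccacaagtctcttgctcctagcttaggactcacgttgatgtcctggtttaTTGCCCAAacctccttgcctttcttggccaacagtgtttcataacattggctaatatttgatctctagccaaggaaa
Fcnb: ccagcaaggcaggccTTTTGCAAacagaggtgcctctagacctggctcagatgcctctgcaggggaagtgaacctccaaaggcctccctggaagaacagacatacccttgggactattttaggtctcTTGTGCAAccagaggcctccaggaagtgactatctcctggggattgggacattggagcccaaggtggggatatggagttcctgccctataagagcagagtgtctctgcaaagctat
Pglyrp1: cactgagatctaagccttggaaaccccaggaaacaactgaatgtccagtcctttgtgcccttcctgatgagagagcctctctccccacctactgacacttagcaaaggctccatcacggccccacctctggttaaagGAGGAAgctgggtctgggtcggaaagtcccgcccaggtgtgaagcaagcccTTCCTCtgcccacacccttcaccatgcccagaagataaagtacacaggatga
Counting back from the RefSeq start, the C/EBP-type matches begin at -235 and -123 in Fcnb and at -138 in Ngp, with a further one at -11 of Ngp inside the exon of GENCODE. The PU.1-type matches begin at -113 and -62 in Pglyrp1. The RefSeq window of Camp overlaps its GENCODE exon by 161 bases and is not shown. Neither Camp nor Abca13, the other called granule genes described above, had a match to either pattern in its window. Of the 27 called genes, 23 had a promoter sequence, some of them several. The C/EBP type was found in 2 of the 18 promoters of upregulated genes (11.1%) and 0 of the 9 of downregulated genes, against 9.56% of all 32851 promoters of the same length. The PU.1 type was found in 7 of 18 (38.9%) and 3 of 9 (33.3%), against 23.3% of all promoters. Counted by gene, these were 2 and 7 of 17 upregulated genes (11.8% and 41.2%), against 9.52% and 26.8% of the 10846 genes tested that had a promoter. A match is a description of these letters and not a binding site.

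Of all 19 genes of secondary and tertiary granules that were listed, 19 were tested and 18 had a log2 fold change above 0, with a median of 0.83, where 44.95% of all genes tested were above 0 and their median was -0.03. The 5 that were called are those described above, Pglyrp1, Fcnb, Ngp, Abca13 and Camp, and without CCR1/2+ve replicate 2 the count above 0 and the number called were the same. The summed level of the list was 12789 to 19697 CPM in CCR1/2+ve and 7603 to 12461 CPM in CCR2+ve libraries. Among those that did not pass, the neutrophil collagenase Mmp8 stood at 1606 ± 255 against 1045 ± 97.5 CPM (adjusted p = 0.0682) and the chitinase-like Chil3 at 7508 ± 2732 against 4150 ± 1924 CPM (adjusted p = 0.668). Lcn2, the iron-sequestering lipocalin, stood at 259, 175 and 127 CPM against 76.6, 86.8, 47.0 and 28.5 CPM, a log2 fold change of 1.62 ± 0.42 (adjusted p = 0.309). The groups of Lcn2 did not overlap, but the spread within each was wide.

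Primary granule genes, which are made earlier in granulocyte development, had 8 of 9 tested genes above 0, a median of 0.56 and 1 called gene, Prss57. Without CCR1/2+ve replicate 2 that median was 0.23 and none was called. Prss57, a serine protease of the neutrophil elastase family, stood at 3.98, 2.90 and 2.81 CPM against 0.974, 1.12, 0.387 and 0.689 CPM, a log2 fold change of 2.00 ± 0.36 (adjusted p = 0.0468). It lost its call without any one of the 7 libraries (adjusted p 0.0501 to 0.174), and 40.7% of its exonic bases are shared with Fstl3, so its reads are uncertain. Elane, neutrophil elastase, stood at 697, 390.4 and 391.9 CPM against 225, 234, 135 and 143 CPM, and Mpo, myeloperoxidase, at 198, 122 and 114 CPM against 52.1, 62.7, 25.8 and 27.1 CPM. Neither overlapped and neither passed (log2 fold changes 1.40 ± 0.27 and 1.77 ± 0.37, adjusted p = 0.151 and 0.187). The same was true of S100a9 and S100a8, which form calprotectin and belong to a separate S100 list. Of the 8 S100 genes tested, 5 were above 0 and 3 below, with a median of 0.07 and 0 called. S100a9 stood at 154, 81.2 and 118 CPM against 21.2, 23.2, 11.03 and 8.82 CPM (log2 fold change 2.85 ± 0.39, adjusted p = 0.0578) and S100a8 at 412 ± 90.3 against 99.3 ± 59.1 CPM (adjusted p = 0.339).

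Receptors by which phagocytes sense bacterial and complement products formed the next group. Fpr1 (ENSMUSG00000045551) and Fpr2 (ENSMUSG00000052270) lie side by side on chromosome 17 (17876471 to 17883940 and 17887824 to 17893952) and encode formyl peptide receptors, which guide phagocytes towards bacteria and damaged tissue. Fpr1 stood at 27.2, 18.7 and 26.0 CPM in CCR1/2+ve cells and at 6.07, 6.42, 2.61 and 4.26 CPM in CCR2+ve cells, a log2 fold change of 2.29 ± 0.27 (adjusted p = 0.00506). Fpr2 stood at 20.3, 17.2 and 16.2 CPM against 5.36, 7.48, 7.02 and 4.65 CPM, a log2 fold change of 1.52 ± 0.20 (adjusted p = 0.00661). In both genes every CCR1/2+ve library was well above every CCR2+ve library. C5ar1, the receptor for the complement fragment C5a, stood at 86.7, 69.7 and 63.7 CPM against 36.5, 38.6, 27.2 and 25.1 CPM (log2 fold change 1.18 ± 0.17, adjusted p = 0.0125, and 0.0690 without CCR1/2+ve replicate 3). Its relative C5ar2 stood at 9.67 ± 2.17 against 4.36 ± 1.17 CPM and did not pass (adjusted p = 0.105), and the C3a receptor C3ar1 at 73.6 ± 9.46 against 88.7 ± 21.5 CPM, with overlapping groups (adjusted p = 0.669). Of 26 pattern recognition receptors tested, 15 were above 0 with a median of 0.17, and Fpr1 and Fpr2 were the 2 called. Clec5a, a lectin receptor that signals through DAP12, passed the adjusted p but not the fold cutoff, at 399, 308 and 303 CPM against 224, 210.4, 175 and 175 CPM (log2 fold change 0.76 ± 0.13, adjusted p = 0.0368).

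A pair of uncharacterised protein-coding genes next to the Trem cluster of myeloid receptors on chromosome 17 were also upregulated. A530064D06Rik (ENSMUSG00000043939, 48149126 to 48167275) had tight groups, at 96.7, 106 and 106 CPM against 47.9, 48.7, 48.8 and 53.2 CPM, a log2 fold change of 1.04 ± 0.12 (adjusted p = 0.00324). Its neighbour 9830107B12Rik (ENSMUSG00000073386, 48125605 to 48146268) stood at 9.74, 12.8 and 10.8 CPM against 3.59, 1.35, 2.18 and 2.84 CPM, a log2 fold change of 2.14 ± 0.28 (adjusted p = 0.00661, and 0.0531 without CCR1/2+ve replicate 3). The Trem genes themselves did not pass. Trem3 stood at 99.0 ± 25.5 against 56.6 ± 15.2 CPM (adjusted p = 0.269) and Trem1, an amplifier of inflammatory signalling, at 27.6 ± 13.4 against 15.1 ± 6.12 CPM with overlapping groups (adjusted p = 0.588). Trem2 lay the other way without overlap, at 51.4 ± 1.96 against 76.0 ± 20.1 CPM (log2 fold change -0.58 ± 0.18, adjusted p = 0.307), and Treml4 stood at 23.9 ± 6.96 against 27.1 ± 8.16 CPM (adjusted p = 0.872).

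Surface and adhesion molecules followed. Ncam1 (ENSMUSG00000039542, chromosome 9, 49502136 to 49798925), the neural cell adhesion molecule CD56, stood at 61.1, 78.0 and 54.9 CPM in CCR1/2+ve cells and 17.7, 11.9, 18.6 and 16.1 CPM in CCR2+ve cells. The groups were far apart, with a log2 fold change of 1.99 ± 0.18 (adjusted p = 0.000347). Cldn15, a tight junction claudin, stood at 29.5, 26.5 and 23.7 CPM against 12.0, 8.65, 9.10 and 6.37 CPM (log2 fold change 1.54 ± 0.20, adjusted p = 0.00661). Ncam1 and Cldn15 were the 2 called of 32 adhesion genes tested, of which 15 were above 0 with a median of -0.01. Nectin1, an adhesion molecule outside that list, was called lower. Siglecg, an inhibitory receptor for sialic acids, stood at 53.1 ± 6.83 against 25.2 ± 4.32 CPM (log2 fold change 1.06 ± 0.16, adjusted p = 0.0232). It was lost without CCR1/2+ve replicate 3 or 4 (adjusted p = 0.0965 and 0.101) or CCR2+ve replicate 3 (0.0527), and fell under the fold cutoff without CCR2+ve replicate 1 (log2 fold change 0.96). Olfml2b, an extracellular olfactomedin-like protein, stood at 9.90 ± 3.04 against 2.97 ± 0.80 CPM (log2 fold change 1.71 ± 0.27, adjusted p = 0.0232) and was lost without CCR1/2+ve replicate 2 or 4 or CCR2+ve replicate 2 (adjusted p = 0.0779, 0.0664 and 0.0574).

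Of the remaining upregulated genes, 3 encode enzymes and 1 is a long noncoding RNA. Mgst2, a microsomal enzyme that joins glutathione to leukotriene A4 and other lipids, stood at 8.10, 7.70 and 10.9 CPM against 3.28, 3.25, 2.37 and 2.15 CPM (log2 fold change 1.67 ± 0.24, adjusted p = 0.0120, and 0.0668 without CCR1/2+ve replicate 4). Akr1c18, a hydroxysteroid dehydrogenase that inactivates progesterone, stood at 18.2, 12.0 and 8.96 CPM against 4.39, 5.95, 4.94 and 3.57 CPM (log2 fold change 1.44 ± 0.25, adjusted p = 0.0401). Its call held only without CCR1/2+ve replicate 4, and without any other single library the adjusted p was 0.0574 to 0.159. Mgam, a maltase found in neutrophils, had 92 reads over the 3 CCR1/2+ve libraries and 7 over the 4 CCR2+ve libraries, a ratio of 18.2 after scaling to depth with a 95% counting interval of 8.51 to 46.6. Its edgeR call (adjusted p = 0.0115) was lost without CCR1/2+ve replicate 2 or 4 (adjusted p = 0.0512 and 0.0505). The noncoding F730016J06Rik, which lies near Fcnb on chromosome 2 (28095477 to 28127731), stood at 7.62 ± 0.79 against 1.92 ± 0.69 CPM (log2 fold change 1.97 ± 0.28, adjusted p = 0.0115, and 0.0607 without CCR1/2+ve replicate 4). Below the fold cutoff, 3 more genes passed the adjusted p alone. They were Ptgs1, the constitutive cyclooxygenase (101 ± 11.6 against 58.3 ± 6.58 CPM), C1galt1c1, the chaperone of the O-glycan core enzyme (694 ± 78.2 against 399 ± 18.2 CPM), and Arl6ip1, which shapes the endoplasmic reticulum (1699 ± 98.2 against 1041 ± 96.3 CPM).

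Among the 8 downregulated genes were Tmem176b and Irf4, both known from dendritic cells. Tmem176b (ENSMUSG00000029810, chromosome 6, 48833818 to 48841496), a membrane cation channel protein of immature dendritic cells, stood at 59.5, 58.9 and 56.4 CPM in CCR1/2+ve cells and 127, 111, 109.6 and 114 CPM in CCR2+ve cells. The groups were tight and well apart, with a log2 fold change of -1.002 ± 0.115 (adjusted p = 0.00345), and it kept an adjusted p below 0.05 without each library, though the log2 fold change was -0.96 without CCR1/2+ve replicate 4 or CCR2+ve replicate 1. Its paralogue Tmem176a stood at 37.7 ± 2.43 against 59.7 ± 5.96 CPM and did not pass (adjusted p = 0.0712). Irf4 (ENSMUSG00000021356, chromosome 13, 30749226 to 30766976), a transcription factor needed for the monocyte-derived dendritic cell fate, stood at 6.93, 11.9 and 9.57 CPM against 24.8, 21.1, 23.8 and 19.6 CPM (log2 fold change -1.25 ± 0.20, adjusted p = 0.0244). Its call was lost without CCR1/2+ve replicate 2 or 4 or CCR2+ve replicate 2 or 3 (adjusted p 0.0528 to 0.112). It was the only one called of 20 myeloid transcription factors tested, of which 19 were below 0 with a median of -0.36, or 16 below 0 and none called without CCR1/2+ve replicate 2. Irf8, which drives monocyte development, stood at 79.8 ± 25.2 against 87.4 ± 20.6 CPM, with a sign that turned without that library.

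Dpp4 (CD26), a peptidase that trims chemokines, stood at 14.3, 11.1 and 13.8 CPM against 20.2, 39.1, 34.4 and 33.0 CPM, with CCR2+ve replicate 1 nearest to the other group (log2 fold change -1.29 ± 0.22, adjusted p = 0.0299). It was called without CCR2+ve replicate 1 and lost without each of the other 6 libraries (adjusted p 0.0657 to 0.218). Apba1, an adaptor of vesicle transport, stood at 17.1, 16.9 and 15.4 CPM against 35.7, 26.3, 31.8 and 41.1 CPM (log2 fold change -1.05 ± 0.17, adjusted p = 0.0244). Its adjusted p was 0.0528 to 0.150 without CCR1/2+ve replicate 2, 3 or 4 or CCR2+ve replicate 3, and without CCR2+ve replicate 4 its log2 fold change was -0.94. Emp1, an epithelial membrane protein, stood at 1.60, 1.35 and 0.966 CPM against 6.998, 5.02, 3.24 and 5.51 CPM (log2 fold change -2.01 ± 0.32, adjusted p = 0.0232, and 0.0574 to 0.131 without CCR1/2+ve replicate 3 or 4 or CCR2+ve replicate 2). The dicarboxylate transporter Slc13a3 stood at 3.75 ± 0.32 against 9.78 ± 2.21 CPM (log2 fold change -1.40 ± 0.23, adjusted p = 0.0244, and 0.0528 to 0.165 without any one CCR1/2+ve library). Nectin1, a cell adhesion molecule, stood at 3.26 ± 0.84 against 9.38 ± 2.47 CPM (log2 fold change -1.54 ± 0.27, adjusted p = 0.0412). It was called without CCR2+ve replicate 1 and lost without each of the other 6 libraries (adjusted p 0.0563 to 0.154). Mir6236, read here as an annotated locus of 123 bases and not as a mature microRNA, stood at 6.20 ± 0.77 against 15.3 ± 3.30 CPM (log2 fold change -1.31 ± 0.21, adjusted p = 0.0244, and 0.0751 to 0.194 without any one CCR1/2+ve library or CCR2+ve replicate 3). Loci at which ribosomal RNA is read stood lower in CCR1/2+ve cells as well, without passing. Their log2 fold changes were -0.72 ± 0.19 for mt-Rnr2, -1.09 ± 0.40 for Gm26917, -0.65 ± 0.16 for Gm15564 and -0.47 ± 0.12 for Lars2 (adjusted p 0.166 to 0.465), while mt-Rnr1 was at 0.07 ± 0.30. Their part in the value of Mir6236 was not tested.

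A further 4 genes were lower by the adjusted p alone. Kmo, the kynurenine 3-monooxygenase of tryptophan breakdown, stood at 32.0 ± 3.70 against 58.9 ± 8.88 CPM (log2 fold change -0.90 ± 0.15, adjusted p = 0.0339). Nptn, the adhesion molecule neuroplastin, stood at 28.1 ± 3.48 against 55.0 ± 10.5 CPM (-0.99 ± 0.17, adjusted p = 0.0365), and Gcn1l1, an activator of the amino acid sensor GCN2, at 36.2 ± 4.62 against 66.0 ± 6.17 CPM (-0.88 ± 0.14, adjusted p = 0.0232). The last, Cttnbp2nl, stood at 16.1 ± 1.05 against 30.6 ± 3.63 CPM.

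Most genes of antigen presentation had higher means in CCR2+ve cells but did not pass. Of 10 MHC class II genes tested, 8 were below 0 with a median of -0.996 and 0 were called by edgeR (6 lower and 1 higher at an unadjusted p below 0.05, 4 called lower by DESeq2). Their summed level was 1513, 1868 and 1576 CPM in CCR1/2+ve and 1963, 3913, 5914 and 3700 CPM in CCR2+ve cells. CCR2+ve replicate 1 lay near the CCR1/2+ve libraries and replicate 3 far above them. Cd74, the invariant chain, stood at 863, 1066 and 880 CPM against 1149, 2562, 3979 and 2612 CPM (log2 fold change -1.48 ± 0.41, adjusted p = 0.362). H2-Aa stood at 58.1, 62.9 and 50.6 CPM against 85.7, 264, 345 and 169 CPM (-1.94 ± 0.48, adjusted p = 0.305). Both genes had non-overlapping groups and a wide spread among the CCR2+ve libraries. Of 16 dendritic cell genes, 10 were below 0 with a median of -0.46, and 0 passed both cutoffs by edgeR (7 lower and 1 higher at an unadjusted p below 0.05, 1 called lower by DESeq2).

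Tissue macrophage genes had a median of -0.78 (-0.63 with genes at 0 in one group set to their bound), with 14 of 20 below 0 and 0 called by edgeR (8 lower at an unadjusted p below 0.05, 5 called lower by DESeq2). The summed level was 243 to 251 CPM in CCR1/2+ve and 301 to 411 CPM in CCR2+ve libraries. Axl, a receptor for the uptake of dying cells, stood at 28.3, 34.9 and 48.4 CPM against 67.6, 95.9, 125 and 104 CPM, which did not overlap (log2 fold change -1.41 ± 0.24, adjusted p = 0.0566). Mrc1, the mannose receptor, stood at 18.2 ± 5.81 against 48.6 ± 16.9 CPM (adjusted p = 0.143). Cx3cr1, the fractalkine receptor of patrolling monocytes, belongs to the monocyte core list and not to this one. It stood at 111 ± 33.0 against 245 ± 65.4 CPM without overlap (log2 fold change -1.155 ± 0.292, adjusted p = 0.281), and DESeq2 called it lower (adjusted p = 0.00347). The complement gene C1qb stood at 6.41 ± 3.08 against 13.3 ± 2.44 CPM (log2 fold change -1.08, adjusted p = 0.187), and without CCR1/2+ve replicate 2, its highest CCR1/2+ve library, it was called lower (log2 fold change -1.52, adjusted p = 0.0250).

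Interferon-responsive genes had medians near that of all genes tested. Antiviral genes had a median log2 fold change of -0.04 over 31 genes, 11 of them above 0 (17 without CCR1/2+ve replicate 2), and IFN-γ response genes a median of -0.13 over 24 genes, 8 above 0 (18 without that replicate, with a median of 0.17). None of either list passed by edgeR or DESeq2 (at an unadjusted p below 0.05, 1 antiviral gene was higher and 1 IFN-γ response gene lower). In resting cells the same lists had medians of -0.91 and -0.90, with 8 and 6 genes called lower in CCR1/2+ve cells. Among chemokines, Ccl6 stood at 1582 ± 94.2 against 1194 ± 102 CPM (log2 fold change 0.39 ± 0.10, adjusted p = 0.208) and Ccl9 at 418 ± 13.8 against 630 ± 114 CPM (-0.61 ± 0.14, adjusted p = 0.136). Most cell cycle genes lay above 0 by a small amount. In S phase 37 of 42 genes were above 0 with a median of 0.32 and in G2/M phase 47 of 52 with a median of 0.34, and 0 of either were called by edgeR or DESeq2 (16 and 24 higher at an unadjusted p below 0.05). Without CCR1/2+ve replicate 2 these medians were 0.24 and 0.29. Summed S phase genes stood at 4224 to 5018 against 2864.5 to 4200 CPM. Summed G2/M genes overlapped, at 12562 to 14191 against 9086 to 13487 CPM. Rrm1, a ribonucleotide reductase subunit, stood at 676, 532 and 485 CPM against 457, 394, 305 and 359 CPM (log2 fold change 0.55 ± 0.14, adjusted p = 0.190). The G2/M gene Top2a stood at 1141, 938.5 and 778 CPM against 867.5, 635, 516 and 526 CPM, with overlapping groups (0.56 ± 0.18, adjusted p = 0.375).

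**Figure D3:**
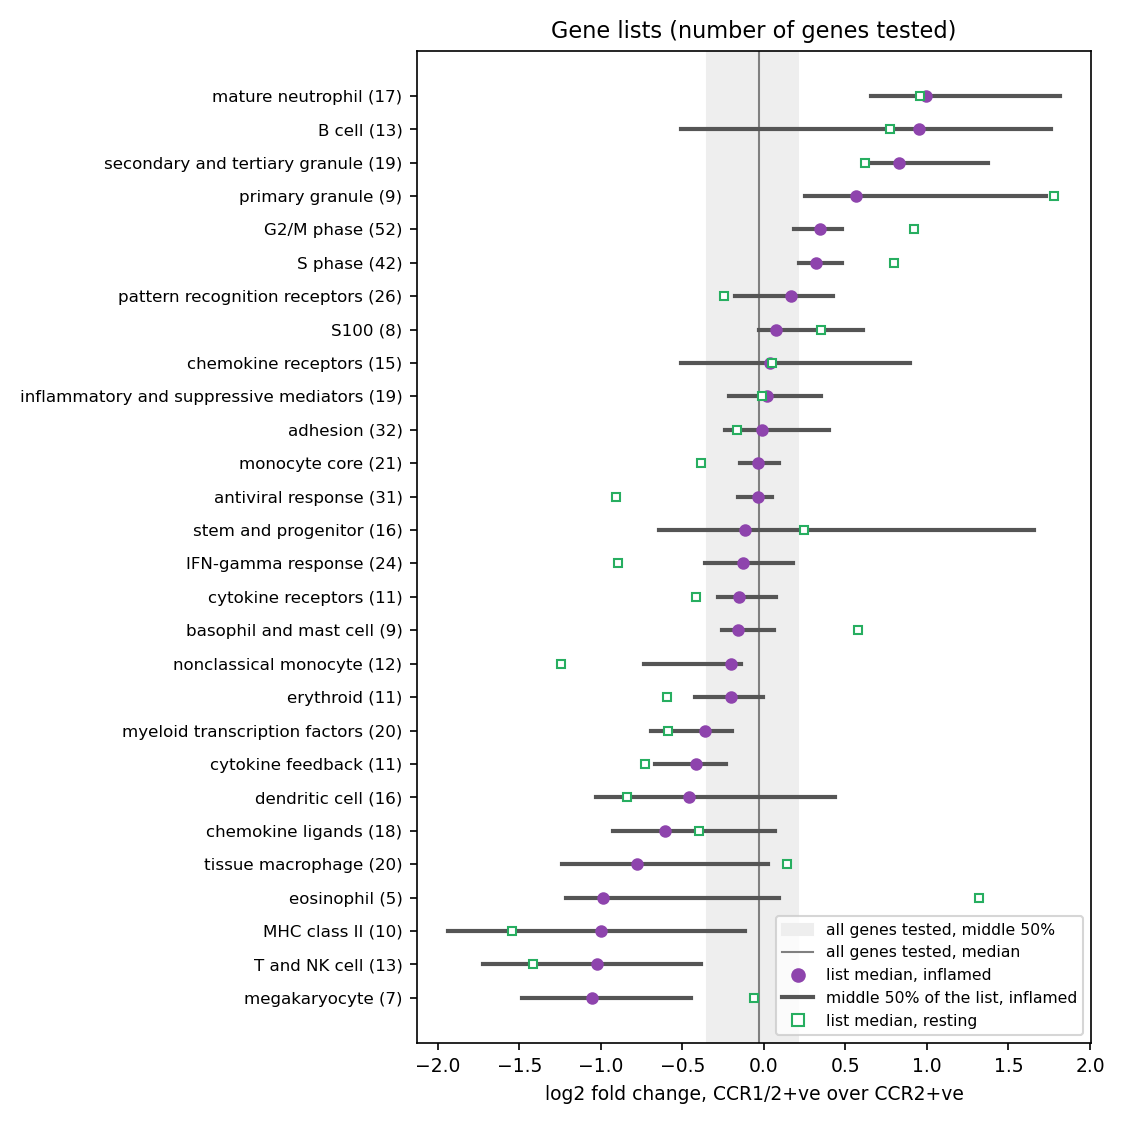
Purple points give the median log2 fold change of each gene list in the inflamed libraries, with a bar over the middle 50% of the list. Green squares give the median in the resting libraries, and the number of genes tested stands in parentheses. The grey band holds the middle 50% of all genes tested in the inflamed libraries. Mature neutrophil and granule lists lie to the right of the band, as do the B cell, S phase and G2/M phase lists. MHC class II, tissue macrophage and dendritic cell lists lie to its left, as do T and NK cell, megakaryocyte and eosinophil lists. Chemokine ligand, cytokine feedback and myeloid transcription factor lists also lie to its left. Inflamed medians of the antiviral and IFN-γ lists lie inside the band. Their resting medians lie to its left, though the band is not that of the resting libraries.

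Markers of other cells were read beside the called genes. All 17 mature neutrophil genes tested were above 0 with a median of 0.99, and Fpr1, Fpr2 and Mgam were called, the first 2 also without CCR1/2+ve replicate 2. The summed level was 947 to 1166 CPM in CCR1/2+ve and 703 to 809 CPM in CCR2+ve libraries. Ly6g, the marker that the sort excluded, stood at 0.679, 1.10 and 1.45 CPM against 0.576, 0.279, 0.484 and 0.344 CPM (adjusted p = 0.379), and Cxcr2, the neutrophil chemokine receptor, at 10.4, 4.65 and 2.59 CPM against 1.64, 1.07, 0.339 and 0.689 CPM (adjusted p = 0.142). The study's own list of 59 neutrophil genes was drawn from transcripts it found higher in CCR1/2+ve monocytes of this same series. In the resting libraries 52 of the 59 were called higher here. Its marks for 21 genes were set with the inflamed samples as well. The list is therefore not independent evidence, for marked or unmarked genes. It had 55 of 59 genes above 0, a median of 1.31 (1.25 with genes at 0 in one group set to their bound) and 8 called, all of them among the 21 marked, or 51 above 0 and 6 called without CCR1/2+ve replicate 2. Summed T and NK cell markers stood at 7.40 to 8.87 CPM against 6.74 to 9.15 CPM, although 12 of 13 genes were below 0 with a median of -1.03 and Nkg7 was higher (5.48 ± 0.67 against 2.49 ± 0.11 CPM, adjusted p = 0.0728). Erythroid markers stood at 1.65 to 4.22 CPM against 1.55 to 4.97 CPM, with overlapping ranges, and eosinophil markers at 2.10 to 3.20 CPM against 2.32 to 3.86 CPM. B cell markers, at 971 to 1660 CPM against 909 to 1698 CPM (7 of 13 genes above 0, median 0.95, or 0.47 with bounds), and basophil and mast cell markers, at 141 to 192 CPM against 113 to 253 CPM, overlapped as well. The part of neutrophil markers in the called genes was not tested.

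The study also sequenced 4 libraries labelled inflamed CCR1, which enter no comparison here. Levels in them are given as a description. Mature neutrophil markers summed to 2119 to 2341 CPM and secondary and tertiary granule genes to 132131 to 186150.4 CPM there, with Ccr2 at 5.82 ± 2.56 CPM, Ccr1 at 38.0 ± 4.60 CPM and Lyz2 at 8278 ± 1895 CPM. Ccr1 was lower in the libraries labelled CCR1 than in any library of either monocyte population, which goes against what the label names. For 15 of the 19 upregulated genes the mean of these libraries was above every CCR1/2+ve library, as for Pglyrp1 (2784 ± 255 CPM), Ngp (86036 ± 12721 CPM), Camp (19966 ± 3290 CPM), Fcnb (8781 ± 1490 CPM) and Ncam1 (652 ± 71.3 CPM). The 4 exceptions were Fpr1 (0.519 ± 0.257 CPM), Fpr2 (3.89 ± 0.78 CPM), Akr1c18 (2.41 ± 0.50 CPM) and A530064D06Rik (51.5 ± 9.28 CPM). The first 3 of these were below even the lowest CCR2+ve library. Mmp8, at 9.10 ± 3.62 CPM, was also far lower there than in either monocyte population. All 8 downregulated genes were below the lowest CCR2+ve library in them. Genes that were not called could also lie far from both populations there, such as Csf1r at 17.7 ± 4.44 CPM. The shares of all genes tested that lay above or below in this way were not counted, so these counts do not set the called genes apart.

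The same genes were then read in the resting libraries, which the inflamed comparison does not use. Of the 19 genes upregulated in inflamed CCR1/2+ve cells, 12 were also called higher in resting CCR1/2+ve cells (63.2%) and all 19 had the same sign. Of the 8 downregulated genes, 6 were also called lower (75%) and 7 had the same sign. In resting cells 437 genes were called higher (2.34%) and 355 lower (1.9%), so that the shared genes were 2.75% and 1.69% of the resting calls. The 437 had a median log2 fold change of 1.38 in resting and 0.41 in inflamed cells, and the 355 a median of -1.42 and -0.48. Genes called in both states were Fcnb, Ncam1, Fpr1, Abca13, Cldn15, 9830107B12Rik, F730016J06Rik, Mgam, Mgst2, Siglecg, Olfml2b and Prss57 on the upper side. Ngp was among those called in inflamed cells alone. It stood at 26.1 ± 10.9 CPM in resting CCR1/2+ve and 27.3 ± 7.58 CPM in resting CCR2+ve cells, with a log2 fold change of 0.02, yet its interaction term of 1.25 ± 0.40 did not pass (adjusted p = 0.195).

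**Figure D4:**
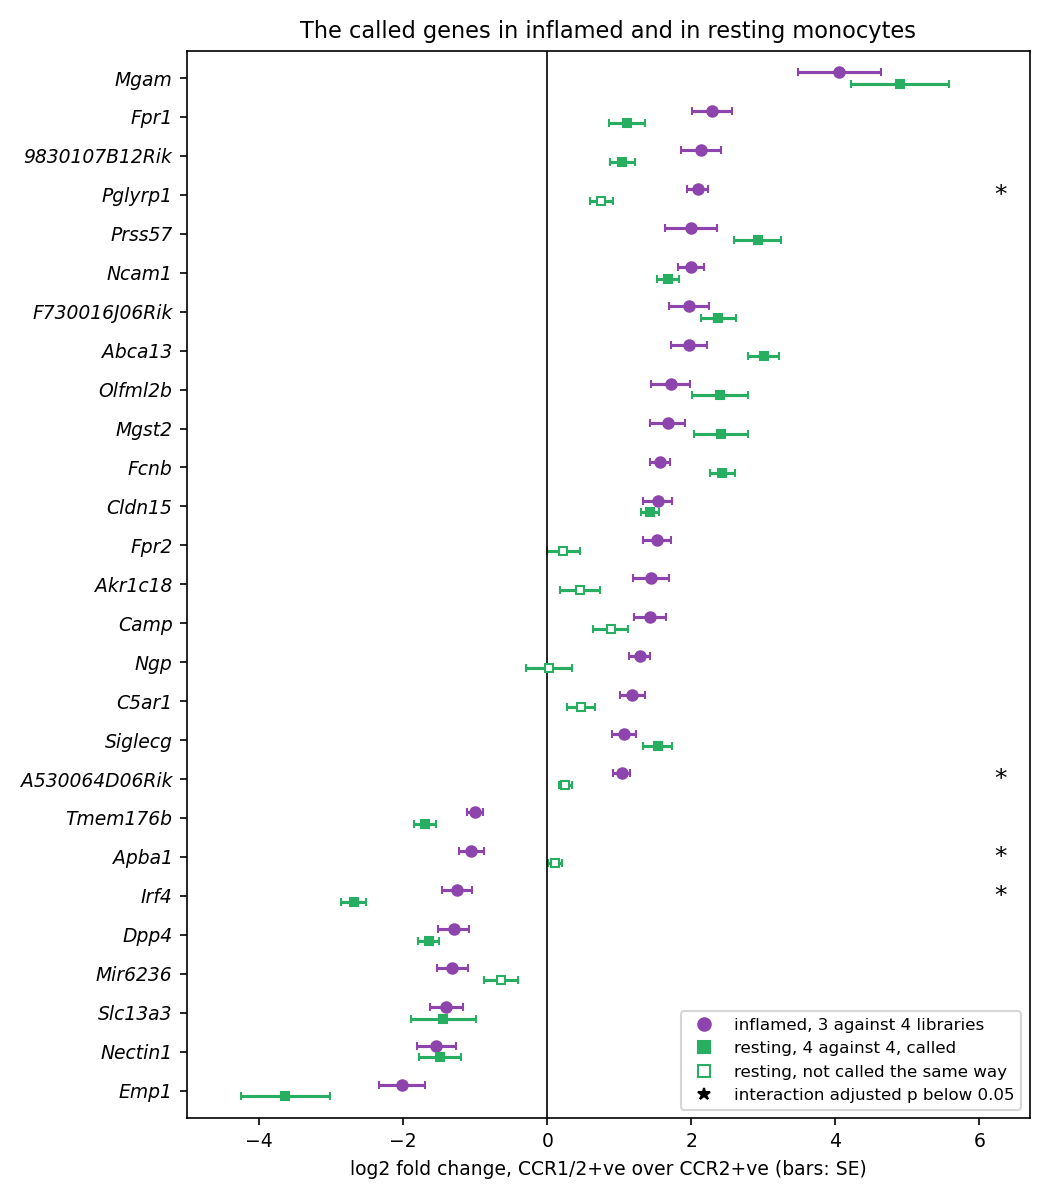
Log2 fold change with SE of the 27 called genes in inflamed cells (purple, 3 against 4 libraries) and resting cells (green, 4 against 4, filled where called the same way), with a star where the interaction passed. The 2 states lie on the same side of 0 for all genes but Apba1, and stars stand at Pglyrp1, A530064D06Rik, Apba1 and Irf4.

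The difference between the states was tested directly as the interaction of population and inflammation over 15 libraries. It passed for 74 genes (0.397%), of which 57 had a smaller absolute difference between the populations in inflamed than in resting cells and 55 had opposite signs in the 2 states. This count was unstable. Without inflamed CCR1/2+ve replicate 3 it was 0 (1827 at an unadjusted p below 0.05), without inflamed CCR2+ve replicates 1, 2 and 4 it was 7, 30 and 253, without resting CCR1/2+ve replicates 2, 3 and 4 it was 5, 38 and 46, without resting CCR2+ve replicates 1 to 4 it was 48, 209, 9 and 32, and DESeq2 gave 534. Among the called genes 4 passed. Pglyrp1 stood at 136 ± 22.7 and 85.2 ± 23.1 CPM in resting CCR1/2+ve and CCR2+ve cells (n = 4 each), against 113 ± 20.2 and 26.2 ± 1.99 CPM in inflamed cells, an interaction of 1.32 ± 0.24 (adjusted p = 0.0273). The level in inflamed CCR2+ve cells was the one that stood apart. A530064D06Rik stood at 84.5 ± 9.86 and 74.7 ± 7.33 CPM in resting and 103 ± 5.43 and 49.6 ± 2.37 CPM in inflamed cells (interaction 0.77 ± 0.14, adjusted p = 0.0273). Its inflamed CCR2+ve libraries were below every resting library, and its inflamed CCR1/2+ve libraries were above every resting library. Irf4 stood at 2.39 ± 0.44 and 16.4 ± 2.29 CPM in resting and 9.45 ± 2.46 and 22.3 ± 2.39 CPM in inflamed cells, so the gap was narrower on the log scale under inflammation (interaction 1.43 ± 0.26, adjusted p = 0.0273). Apba1 was level at rest, at 44.6 ± 1.65 and 43.4 ± 5.14 CPM, and stood at 16.5 ± 0.93 and 33.8 ± 6.26 CPM in inflamed cells (interaction -1.18 ± 0.20, adjusted p = 0.0237). Nptn had that form too, at 89.8 ± 7.63 and 86.4 ± 5.83 CPM in resting cells against 28.1 and 55.0 CPM in inflamed cells.

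Ccr2 itself was among the 74. In resting cells it stood at 633 ± 109 CPM in CCR1/2+ve against 1218 ± 181 CPM in CCR2+ve cells, and in inflamed cells at 1240.5 ± 135 and 1250.9 ± 125 CPM (interaction 0.83 ± 0.18, adjusted p = 0.0478). For Ccr1 the interaction did not pass (-0.10 ± 0.26, adjusted p = 0.920). Its resting log2 fold change was 0.65, with levels of 112 ± 20.6 and 75.1 ± 7.13 CPM. The complement receptor C3ar1 showed a large shift of this kind, from 1.45 ± 0.72 and 7.13 ± 0.90 CPM at rest to overlapping levels under inflammation (interaction 1.91 ± 0.33, adjusted p = 0.0273). Ms4a4a, a tetraspan surface protein, stood at 86.2 ± 16.2 and 219 ± 30.7 CPM at rest and 285 ± 29.1 and 286 ± 40.9 CPM in inflamed cells (interaction 1.23 ± 0.19, adjusted p = 0.0180). In the other direction, Fcna stood at 7.97 ± 3.76 and 1.37 ± 0.36 CPM at rest (interaction -3.13 ± 0.44, adjusted p = 0.0173) and the tetraspanin Cd81 at 21.1 ± 4.36 and 7.001 ± 0.788 CPM at rest against 17.03 ± 2.50 and 18.98 ± 5.15 CPM in inflamed cells (interaction -1.86 ± 0.28, adjusted p = 0.0173).

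**Figure D5:**
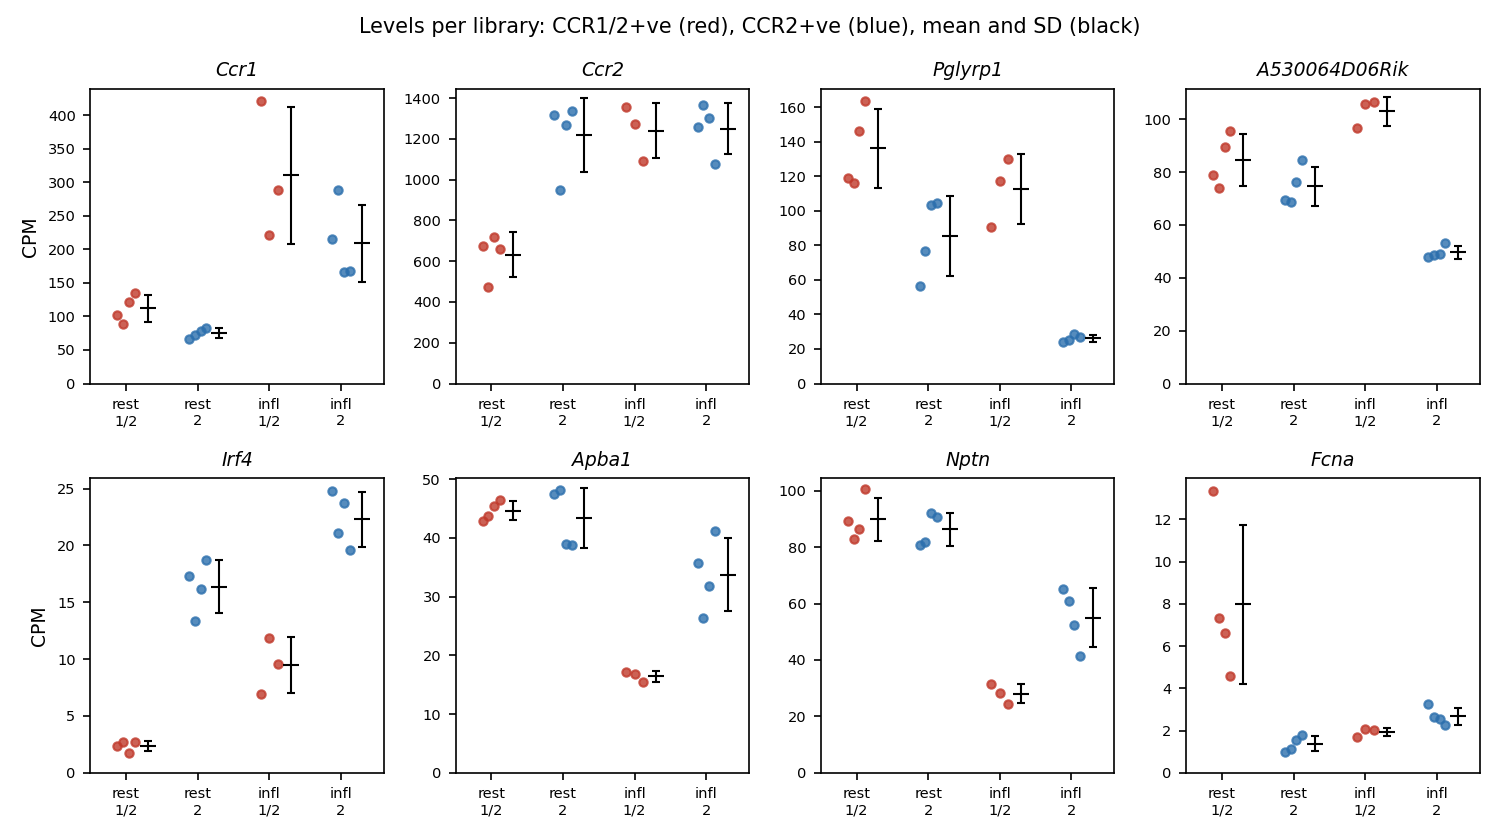
Levels in CPM of 8 genes in every library of resting (rest) and inflamed (infl) CCR1/2+ve (1/2, red) and CCR2+ve (2, blue) monocytes, with mean and SD in black. Ccr2 is low in resting CCR1/2+ve cells alone, Pglyrp1 and A530064D06Rik are lowest in inflamed CCR2+ve cells, and Apba1 and Nptn are lowest in inflamed CCR1/2+ve cells.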

How the data were processed

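Gene counts of bone marrow monocytes were read from 1 table with 20 columns; 19 could be mapped to samples and 1, named as replicate 1 of inflamed CCR1/2+ve cells, matched no sample record and was not used. The deposited values are raw read counts per gene of Ensembl release 91, which the authors obtained by aligning paired-end reads to GRCm38 with STAR 2.7.10a, keeping reads placed once with at least 35 matched bases. Reads on both strands of overlapping genes cannot be told apart here, because the strand of counting is not given in the sources used here. The table holds 0 genes of chromosome 14 and a part of those of chromosomes 15 to 19, so the rest were not analysed here.

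Testing covered the 18652 of 50854 genes whose mean over the 19 libraries reached 1 read, with edgeR 4.0.16 in R 4.3.3 (TMM, quasi-likelihood F test, two-sided, Benjamini-Hochberg over all genes tested) on the 7 inflamed libraries. The resting groups were fitted alike, and the interaction on 15 libraries. Both cutoffs (0.05 and 1) are the study's, which used DESeq2. CPM were TMM-normalised over 19 libraries. SE is the absolute log2 fold change over the root of F. A two-sided exact permutation test of 3 against 4 libraries cannot go below p = 0.0571, so none is given. The floor of a gene was 3 reads or fewer in each library of a group. Principal components used log2 CPM (prior count 2). Scripts were tested on simulated data. Reads on genes per library set a counting error that is small beside the replicate spread except for genes of a few CPM, and intervals cover counting error only.

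Named were Ccr1, Ccr2, Ccr3 and Csf1r (a further gene of the rule is not reported here), up to 15 called genes a direction with the smallest p and no overlap, the 5 with the largest fold, called or most abundant members of 30 gene lists, and genes with the smallest interaction p. Outside that rule, Akr1c18, Mpo, S100a9, Lcn2, Ly6g, Cxcr2, Trem1, Trem2, Treml4, C5ar2, C3ar1, mt-Rnr1, mt-Rnr2, Gm26917, Gm15564, Lars2, Tmem176a, H2-Aa, C1qa, C1qb, C1qc, the genes past the adjusted p alone other than Clec5a, and the 2 promoter patterns were chosen after their values were seen. The members and lists were chosen with earlier results of these data known. S and G2/M lists are those of Seurat 5.3.0, positions are GENCODE M21 and promoters RefSeq. Alternatives were DESeq2 1.42.0, other size factors, filters, covariates and samples, and each library left out.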

Additional observations from a re-analysis of the deposited data

Results flagged for a closer look

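For several genes the difference between the populations was not the same in inflamed as in resting cells by the test of the interaction (log2, with edgeR's adjusted p below 0.05). Besides Pglyrp1 (1.32), A530064D06Rik (0.77), Irf4 (1.43), Apba1 (-1.18) and Nptn (-1.12), this was seen for Gcn1l1 (-1.02), Ccr2 (0.83), Ccl6 (0.98), C3ar1 (1.91), Ms4a4a (1.23), the small GTPase Rnd3 (0.74), the antiproliferative gene Btg1 (1.12), Fcna (-3.13), Cd81 (-1.86), the mitochondrial tRNA mt-Tp (-2.38), the ribosomal RNA loci mt-Rnr2 (-1.19) and Gm26917 (-2.01), and Ccr3 (-4.44). The 3 genes of complement C1q moved together, at -3.25 for C1qa, -2.81 for C1qb and -3.12 for C1qc. Ccr3, C1qa and C1qc were at a few CPM or less in inflamed cells, where single reads weigh most.

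Within groups of 4 libraries, 2 values stood far from the rest. Camp was at 27.3 CPM in CCR2+ve replicate 1, and C1qa at 4.23 CPM in CCR2+ve replicate 2. Chance sets apart about 1 in 20 such groups.

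In the libraries labelled inflamed CCR1, which no comparison used, the mean of 15 of the 19 upregulated genes was above every inflamed CCR1/2+ve library. The share of all genes tested for which this held was not counted. The identity of those cells beyond their label was not tested.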

How the results depend on the processing

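Relative to 19 genes called higher and 8 lower, DESeq2 called 43 and 64, no filter on low counts 33 and 20, a replicate block 35 and 45, and a term parting replicates 1 and 2 from 3 and 4 called 43 and 38. All 15 libraries in one fit called 18 lower and filterByExpr 5 lower. Leaving out each library in turn gave 13 to 19 higher and 2 to 23 lower. The 74 genes past the interaction were 534 with DESeq2, 113 with RLE size factors, 122 with filterByExpr, 145 with no filter, 470 with the replicate block, 348 with the term for replicates and 0 to 253 without each library in turn. The causes were not tested. Deviations of same-numbered libraries correlated at 0.36, 0.52 and -0.32 over 7685 genes, and those of differently numbered libraries at -0.65 to 0.46. These values cannot decide whether the numbers mark pairs, and the main test did not take them as such. Replicate 3 had the highest IFN-γ response sum of both populations. For CCR1/2+ve it was 4160 CPM, with replicates 2 and 4 at 1780 and 2390. For CCR2+ve it was 4819 CPM, with the others at 2064 to 2510. The source of this shared rise was not tested.

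Sign changes were seen for genes near 0 that did not pass between the inflamed populations. Without each library in turn Ccr2 ranged from -0.0969 to 0.0699, Irf8 from -0.285 to 0.107, Cd81 from -0.271 to 0.0181, Ms4a4a from -0.0994 to 0.0644, mt-Rnr1 from -0.199 to 0.237, Treml4 from -0.394 to 0.0229 and Lyz2 from -0.0930 to 0.0612, and Cd81 was at 0.0174 with the replicate block. The libraries that turned the sign were CCR1/2+ve replicate 4 and CCR2+ve replicates 2 and 3 for Ccr2, CCR1/2+ve replicate 2 for Irf8, CCR2+ve replicate 1 for Cd81, CCR1/2+ve replicate 4 and CCR2+ve replicate 2 for Ms4a4a, CCR1/2+ve replicate 2 for Treml4, and CCR1/2+ve replicate 2 and CCR2+ve replicate 3 for Lyz2 and mt-Rnr1. List counts without CCR1/2+ve replicate 2 were added after the data were seen. At this depth the ratio of Mgam is known only within 8.51 to 46.6.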

Other observations

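Nkg7, a granule membrane protein of cytotoxic lymphocytes, stood at 6.25, 5.10 and 5.09 CPM in inflamed CCR1/2+ve and 2.35, 2.51, 2.47 and 2.63 CPM in inflamed CCR2+ve cells (log2 fold change 1.12 ± 0.22, adjusted p = 0.0728). It was among the 3 most abundant T and NK cell markers, while 12 of the 13 markers of that list were below 0. In resting cells Nkg7 was called higher in CCR1/2+ve cells, at 48.4 ± 23.65 against 8.33 ± 2.91 CPM (edgeR, adjusted p = 0.00246). In the libraries labelled inflamed CCR1 it stood at 1562 ± 152 CPM.

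Csf3r, the G-CSF receptor, stood at 519 ± 29.6 against 470.2 ± 33.8 CPM with overlapping groups (log2 fold change 0.12, adjusted p = 0.764), and Padi4, the enzyme that citrullinates histones in neutrophils, at 191 ± 43.5 against 119.7 ± 16.9 CPM (log2 fold change 0.66, adjusted p = 0.196).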
